A study of Homo sapiens with 24 samples.

Results

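The 9 genes described here are 3 secreted proteins of the CCN family (CYR61, CTGF and WISP2, also called CCN1, CCN2 and CCN5), thrombospondin 1 (THBS1), the YAP target genes ANKRD1, AMOTL2 and AXL, and the transcriptional coactivators YAP1 and WWTR1 (TAZ). They were taken by name, and all 9 were found in each of the 3 count tables, which together hold 14411 genes. The choice rested on how these genes had behaved in the same libraries, so that their Control and Dox values are given below as a description. Panc-1 is an established human pancreatic ductal carcinoma line. The study placed rat MIST1myc or mouse PTF1amyc, basic helix-loop-helix factors of the acinar cell, under a doxycycline (Dox)-inducible promoter in these cells and asked how the transcriptome responded. RNA was sequenced from 3 lines, namely Tet-One with the empty plasmid at passage 32, Tet-MIST1 at passage 33 and Tet-PTF1a at passage 32. All of them carried the Tet-One plasmid, had been selected with puromycin and were clones picked in a screen for Dox induction of the factor. Each gave 4 replicate libraries without Dox (Control) and 4 after 72 h in 1 µg/ml Dox, 24 in all, so that clone, passage and factor cannot be told apart when lines are compared.

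YAP1 and WWTR1 shuttle between cytoplasm and nucleus and bind DNA through the TEAD factors. The Hippo kinases phosphorylate both proteins and hold them in the cytoplasm, and a stiff matrix or a tense actin cytoskeleton releases them. CYR61, CTGF and ANKRD1 are among the targets used most often to read their activity, and the same genes respond to TGF-β and to the serum response factor SRF. CCN proteins and thrombospondins are matricellular proteins, which sit in the extracellular matrix and signal through integrins and other receptors rather than giving the matrix its structure. AXL, the receptor tyrosine kinase for GAS6, is a YAP target linked to invasion and drug resistance in pancreatic cancer.

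The promoters of THBS1, CTGF and ANKRD1, targets whose levels differed between these lines or conditions, are printed with that of AXL to show where TEAD motifs lie. Each run covers 250 bases before and 50 bases after a RefSeq transcription start of build GRCh38.p14, on the strand of the gene. Capitals mark GGAATG, the core of a TEAD site, and the E box CANNTG, the motif of basic helix-loop-helix factors, both read on either strand.
THBS1, chr15:39580829-39581128, + strand: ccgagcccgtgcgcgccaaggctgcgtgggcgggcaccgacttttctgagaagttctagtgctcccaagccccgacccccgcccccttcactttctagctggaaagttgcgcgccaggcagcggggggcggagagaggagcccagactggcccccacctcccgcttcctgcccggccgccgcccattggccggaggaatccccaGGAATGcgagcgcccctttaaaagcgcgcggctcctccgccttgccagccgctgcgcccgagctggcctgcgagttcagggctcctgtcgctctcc
CTGF, chr6:131951323-131951622, - strand: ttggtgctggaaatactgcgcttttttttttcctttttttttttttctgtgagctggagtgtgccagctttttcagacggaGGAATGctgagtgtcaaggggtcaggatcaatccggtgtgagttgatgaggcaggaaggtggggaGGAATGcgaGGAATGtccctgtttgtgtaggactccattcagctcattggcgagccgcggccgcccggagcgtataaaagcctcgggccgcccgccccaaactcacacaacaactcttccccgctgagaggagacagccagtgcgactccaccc
ANKRD1, chr10:90921038-90921337, - strand: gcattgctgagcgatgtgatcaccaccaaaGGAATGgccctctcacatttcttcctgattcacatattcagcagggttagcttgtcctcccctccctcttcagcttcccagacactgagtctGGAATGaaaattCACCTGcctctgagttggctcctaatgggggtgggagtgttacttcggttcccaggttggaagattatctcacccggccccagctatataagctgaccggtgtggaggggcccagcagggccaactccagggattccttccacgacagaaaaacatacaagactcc
AXL, chr19:41218973-41219272, + strand: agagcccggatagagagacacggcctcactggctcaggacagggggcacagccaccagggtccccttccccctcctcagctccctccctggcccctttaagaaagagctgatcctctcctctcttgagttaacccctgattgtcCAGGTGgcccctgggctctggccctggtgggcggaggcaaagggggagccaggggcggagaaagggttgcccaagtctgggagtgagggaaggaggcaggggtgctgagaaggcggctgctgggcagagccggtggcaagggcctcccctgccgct

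The CTGF window held the TEAD core 3 times, starting at positions -169, -104 and -95 from the transcription start. The ANKRD1 window held it 2 times, at -220 and -128, and the THBS1 window once, at -46. The AXL window shown held none, although a second AXL window of the table held 1 on the other strand. The TEAD core occurred in 14.0% of all 35116 windows of this length. The E box was present in 68.7% of the windows, and its form CAGCTG, which both MIST1 and PTF1a can bind, in 17.9%. Neither the THBS1 nor the CTGF window held an E box, the ANKRD1 window held 1 at -116, and the AXL window shown held 1 at -106. The second AXL window held E boxes at -79 and -10. Among the other windows not printed, the TEAD core lay at -162 for YAP1 and at -69 for AMOTL2. E boxes lay there at -203 for YAP1 and at -45 and -34 for WWTR1. The form with GC at its centre had no match in any of the 10 windows of the 7 genes that had one.

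The TC box TGGGAAA, found in 7.92% of all windows, also had no match in these 10. The pattern TGANTCA, a looser form of the AP-1 motif TGA(C/G)TCA, was found in 7.71% of windows. It matched in the ANKRD1 window only, at -195, as TGATTCA, which is not the AP-1 motif itself. These are matches of letters and not measured binding.

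Library totals were between 17210989 and 43018494 counts, and Tet-PTF1a Dox libraries were shallower (median 20061501) than Tet-PTF1a Control libraries (median 29489572). The library furthest from its group was Tet-One Dox replicate 1, whose distance in log2 CPM from its 3 sister libraries had an SD of 0.53 over genes, against 0.19 to 0.21 for the sisters, and Tet-One values are therefore also given without it. Tet-MIST1 Dox replicate 1 stood apart to a lesser degree, with an SD of 0.21 against 0.10 to 0.15 for its sisters. Without it the log2 fold changes in Tet-MIST1 were 0.78 for WISP2, -0.44 for THBS1, -0.18 for YAP1, -0.13 for WWTR1 and between -0.05 and 0.04 for CYR61, CTGF, AMOTL2 and AXL. The human PTF1A locus had 0 to 2 counts in Tet-PTF1a Control libraries and 53 to 168 in Dox libraries, although the induced open reading frame is from mouse. The human MIST1 locus, BHLHA15, was absent from the Tet-One and Tet-MIST1 counts, so no such check could be made for MIST1. The 4 keratins listed as epithelial markers summed to 3127 to 3306 CPM in Tet-PTF1a Control and to 1366 to 1421 CPM in Tet-PTF1a Dox libraries, and VIM to 4660 to 4887 and 3757 to 3870 CPM. The 3 fibroblast markers analysed of 5 summed to 156 to 164 CPM in Tet-PTF1a Control and 80.3 to 83.2 CPM in Dox libraries, where COL1A1 went from 153 to 64.5 CPM and COL3A1 the other way, from 6.36 to 16.3 CPM. The leukocyte marker analysed reached at most 1.40 CPM in any library. The part of these shifts in the values below was not tested.

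The coactivators themselves moved little with Dox, while their listed targets went in several directions at once in Tet-PTF1a cells. Levels are in CPM (counts relative to a library size that the authors scaled), and fold changes on the log2 scale come from edgeR with a standard error (SE) from the fit. WWTR1 (chr3:149235022-149421060 in hg19, 5367 exon bases) was measured in Tet-PTF1a Control at 734, 697, 691 and 706 CPM and in Dox at 737, 748, 761 and 754 CPM. Every Dox library lay above every Control library, but by a small margin, and the log2 fold change was 0.08 ± 0.02 (SE, n = 4 and 4). YAP1 (chr11:101981192-102104154, 5704 exon bases) gave 417, 430, 423 and 422 CPM in Tet-PTF1a Control and 416, 403, 421 and 394 CPM in Dox. The ranges overlapped, and the log2 fold change was -0.05 ± 0.02, or -0.03 without Dox replicate 4. In Tet-MIST1 cells YAP1 gave 206, 202, 202 and 196 CPM in Control and 154, 182, 182 and 167 CPM in Dox. All Dox libraries were below all Control libraries, and the log2 fold change was -0.23 ± 0.05, or -0.18 without Dox replicate 1. Here and below, fewer expressing cells and less RNA per cell cannot be told apart in bulk RNA. WWTR1 was also lower in every Tet-MIST1 Dox library, at 433 ± 19.7 CPM (SD, n = 4) against 478 ± 9.83 CPM, a log2 fold change of -0.13 ± 0.05. In that line genes with long exons tended to be lower with Dox. Genes with at least 4923 exon bases had a median log2 fold change of -0.10 and those with at most 2052 had 0.10. With this trend removed the YAP1 value was -0.15 and that of WWTR1 -0.06.

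**Figure D1:**
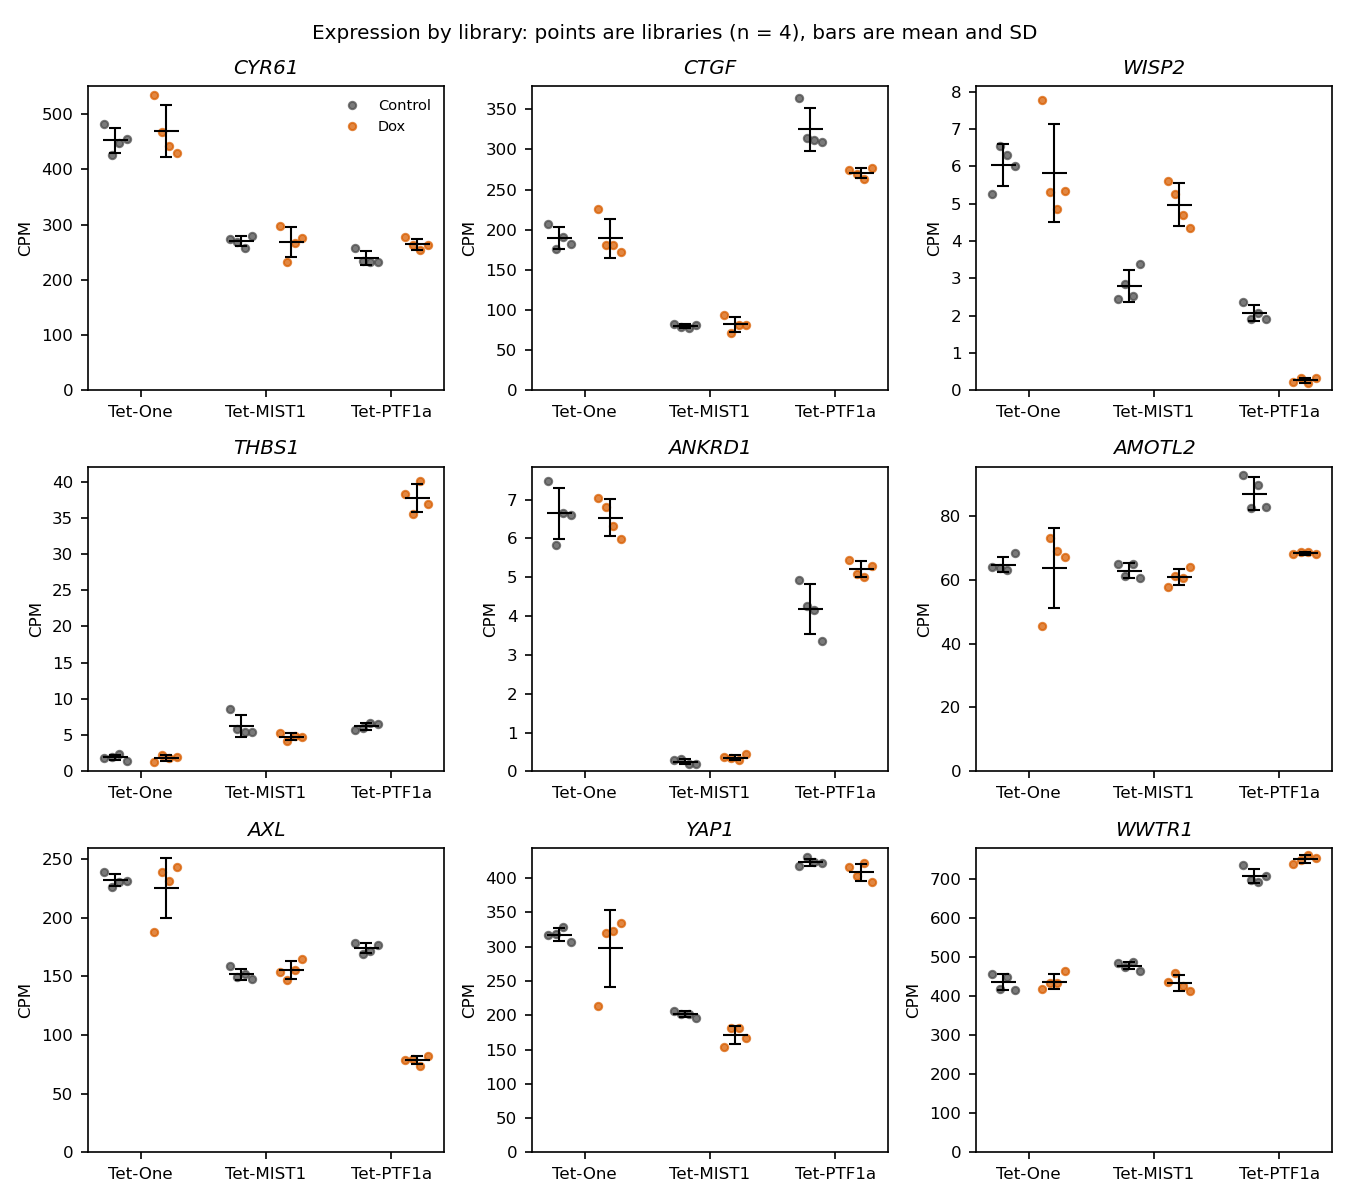
CPM of the 9 genes (y axis, linear, from 0) in each library of the 3 lines (x axis), Control in grey and Dox in orange, with the mean and SD of 4 libraries as black bars. THBS1 in Tet-PTF1a Dox, between 35.5 and 40.1 CPM, lies far above every other group, WISP2 and AXL lie below their Control in the same line, and Tet-One Dox replicate 1 lies apart for YAP1 and AMOTL2.

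AMOTL2 (chr3:134074187-134094259, 5238 exon bases) encodes an angiomotin-like scaffold that binds YAP1 and is itself a YAP target. It was measured in Tet-PTF1a Control at 92.9, 82.3, 89.7 and 82.9 CPM and in Dox at 67.9, 68.8, 68.5 and 67.9 CPM. The Dox libraries were nearly equal to each other and all below Control, with a log2 fold change of -0.35 ± 0.03. In Tet-MIST1 the ranges overlapped at 62.8 ± 2.34 and 60.8 ± 2.59 CPM (SD, n = 4 each).

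Of the CCN genes, CYR61 and CTGF were abundant and moved little, and in opposite directions, in Tet-PTF1a cells. CYR61 (chr1:86046444-86049648, 2293 exon bases), a ligand of several integrins, gave 258, 235, 233 and 233 CPM in Tet-PTF1a Control and 278, 264, 254 and 262 CPM in Dox. Control replicate 1 overlapped the Dox libraries, and the other 3 Control libraries were below them. The log2 fold change was 0.14 ± 0.03, and 0.18 without Control replicate 1. CTGF (chr6:132269317-132272518, 2343 exon bases), the connective tissue growth factor that promotes desmoplasia in pancreatic cancer, gave 364, 314, 312 and 309 CPM in Tet-PTF1a Control and 274, 270, 263 and 276 CPM in Dox. All Dox libraries were below all Control libraries, of which replicate 1 was the highest. The log2 fold change was -0.26 ± 0.06, and -0.20 without Control replicate 1. In Tet-MIST1 cells CYR61 was at 270 ± 9.21 CPM in Control and 268 ± 27.1 CPM in Dox, and CTGF at 80.5 ± 2.49 and 82.2 ± 9.29 CPM (SD, n = 4 each). Both pairs of ranges overlapped.

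The balance of these related genes therefore shifted within Tet-PTF1a libraries. Per kilobase of exon, CTGF was 1.32 ± 0.04 times CYR61 in Tet-PTF1a Control (SD, n = 4 libraries, range 1.30 to 1.38) and 1.00 ± 0.03 times CYR61 in Dox (range 0.97 to 1.03), and the ranges were apart. The ratio stayed at 0.41 ± 0.01 and 0.40 ± 0.01 in Tet-One and at 0.29 ± 0.004 and 0.30 ± 0.01 in Tet-MIST1, Control and Dox in turn, with overlapping ranges in each line.

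**Figure D2:**
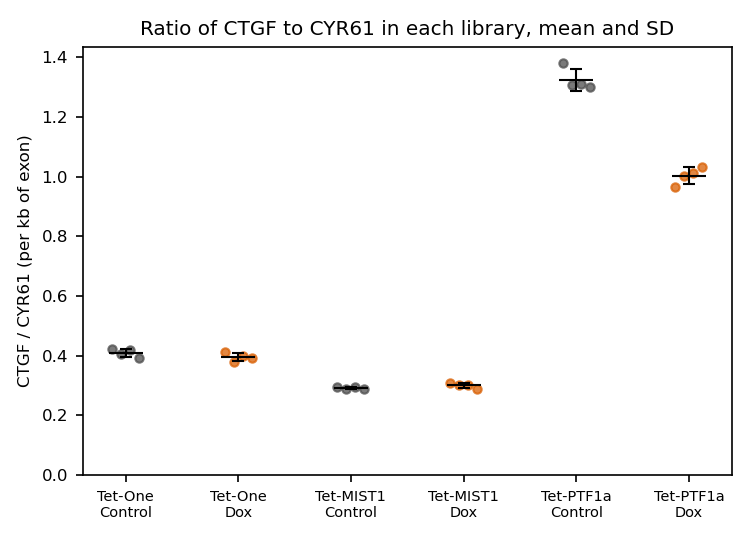
Ratio of CTGF to CYR61 per kilobase of exon (y axis, from 0) in each library of the 6 groups (x axis), with mean and SD of 4 libraries. Tet-PTF1a Control lies highest at 1.30 to 1.38, Tet-PTF1a Dox at 0.97 to 1.03, and the other groups lie below 0.43.

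WISP2 (chr20:43343885-43356452, 1404 exon bases), the CCN protein that lacks the carboxy-terminal cystine knot domain of its relatives, went in opposite directions in the 2 factor lines. In Tet-PTF1a it gave 2.36, 1.90, 2.08 and 1.92 CPM in Control, from 34 to 100 counts a library, and 0.230, 0.330, 0.206 and 0.335 CPM in Dox, from 4 to 11 counts. All Dox libraries were below all Control libraries, 7.51-fold in the means, with a log2 fold change of -2.58 ± 0.24. In Tet-MIST1 it gave 2.44, 2.86, 2.52 and 3.38 CPM in Control and 5.62, 5.27, 4.68 and 4.34 CPM in Dox. All Dox libraries were above all Control libraries, 1.78-fold in the means, with a log2 fold change of 0.84 ± 0.12. WISP2 was a weakly expressed gene in every group, and in Tet-PTF1a Dox libraries its precision was limited by the few reads.

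THBS1 (chr15:39873280-39891121, 7243 exon bases), the matricellular protein that activates latent TGF-β and binds CD47, had the highest positive fold change of the 9 genes. It gave 5.66, 5.94, 6.70 and 6.53 CPM in Tet-PTF1a Control and 38.3, 35.5, 40.1 and 36.9 CPM in Dox, from 106 to 249 and from 667 to 1212 counts. The groups were far apart, with a 6.07-fold higher mean and a log2 fold change of 2.59 ± 0.06. In Tet-MIST1 the Control libraries gave 8.60, 5.86, 5.39 and 5.41 CPM and the Dox libraries 5.37, 4.16, 4.89 and 4.77 CPM. The highest Dox library lay only just under the lowest Control library, and the log2 fold change of -0.38 ± 0.15 came to -0.20 without Control replicate 1 and to -0.27 with the trend of exon length removed.

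ANKRD1 (chr10:92671857-92681032, 1974 exon bases), a nuclear ankyrin repeat protein first known from heart muscle, gave 4.93, 4.26, 4.17 and 3.36 CPM in Tet-PTF1a Control and 5.46, 5.09, 5.00 and 5.30 CPM in Dox. Every Dox library was above every Control library, the closest pair by little, and the log2 fold change of 0.31 ± 0.11 came to 0.19 without Control replicate 4. In Tet-MIST1 the gene was close to silent, with 7 to 14 counts in Control and 11 to 15 counts in Dox libraries, or 0.25 ± 0.07 and 0.36 ± 0.06 CPM. These ranges overlapped, and the gene did not reach the limit of 0.5 CPM in 4 libraries that was set for the fit in that line.

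AXL (chr19:41725104-41767672, 4900 exon bases) was lower in every Tet-PTF1a Dox library. Its Control libraries gave 179, 169, 172 and 176 CPM and its Dox libraries 78.5, 79.7, 73.8 and 82.4 CPM. The Dox libraries stood far below Control, at 2.21-fold less in the means and a log2 fold change of -1.14 ± 0.03. In Tet-MIST1 AXL was at 152 ± 4.80 and 155 ± 7.46 CPM in Control and Dox (SD, n = 4 each), with overlapping ranges.

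**Figure D3:**
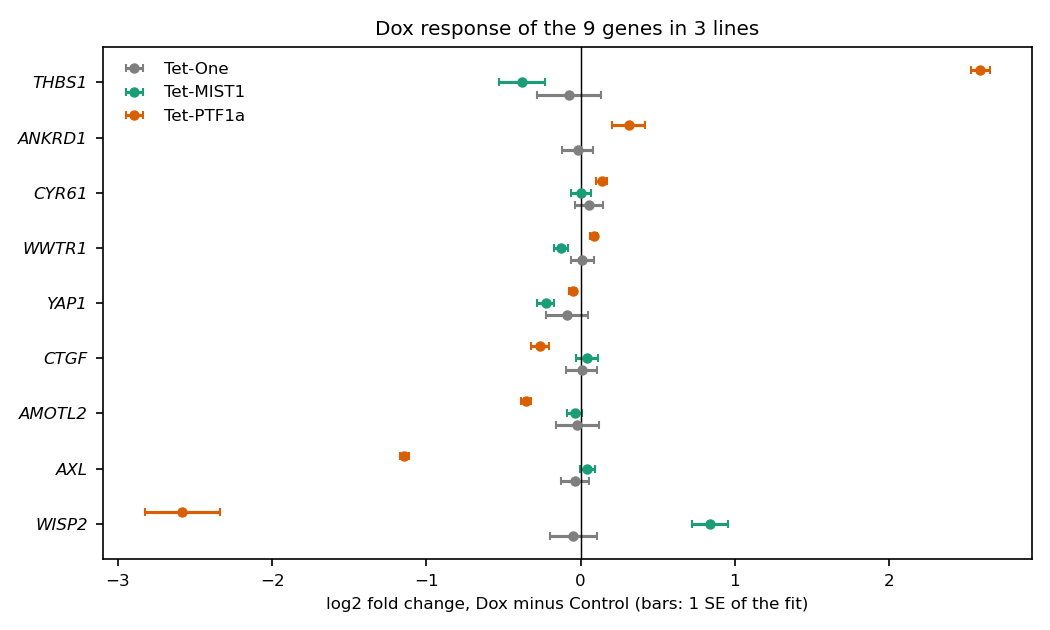
Log2 fold change, Dox minus Control (x axis), of the 9 genes (y axis, ordered by their value in Tet-PTF1a) in the 3 lines, with 1 SE of the edgeR fit. Tet-PTF1a values run from -2.58 for WISP2 to 2.59 for THBS1, Tet-MIST1 values from -0.38 to 0.84 and Tet-One values from -0.09 to 0.05, and ANKRD1 has no point in Tet-MIST1.

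Counted together, 4 of the 9 genes were called higher and 5 lower in Tet-PTF1a at an FDR under 0.05, where 48.2% of 14053 genes were called, 3344 induced (23.8%) and 3431 repressed (24.4%). YAP1, among the 5, lay only just under that limit. Scaling by library size gave 4392 induced and 2698 repressed DEGs, and the sign of each of the 9 genes stayed, although the value of YAP1, whose ranges overlapped, came to -0.01. The genes had been chosen on these values, so that these counts are a description and no evidence of their own. Dox and Control ranges did not overlap for 7 of the 9 genes, against 42.3% of all genes, with Dox above for 3 (20.8% of all genes) and below for 4 (21.4%). The median log2 fold change of the 9 genes was -0.05, beside 0.00 for all genes tested. In Tet-MIST1 1 of the 8 genes fitted was called higher and 1 lower, where 20.6% of 13623 genes were called, 11.9% induced and 8.77% repressed. There 4 of the 9 had ranges that did not overlap, against 27.1% of all genes, with Dox above for 1 (12.8%) and below for 3 (14.4%). In Tet-One 0 of the 9 were called, where edgeR called 0.0% of 13428 genes (401 genes at an unadjusted p under 0.05, and 0 DEGs by DESeq2), and all 9 had overlapping ranges, against 2.44% of genes that did not overlap.

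The empty-plasmid line received Dox without a factor to induce, and the 9 genes stayed close to Control. Their log2 fold changes ran from -0.09 for YAP1 to 0.05 for CYR61, with SEs from 0.07 to 0.21. YAP1 gave 317, 318, 329 and 306 CPM in Tet-One Control and 214, 320, 322 and 334 CPM in Dox, the low value being replicate 1. That library was at 0.66 times the mean of the other 3 Dox libraries for YAP1, 0.65 times for AMOTL2, 0.61 times for THBS1 and 0.79 times for AXL. It was at 1.50 times that mean for WISP2, 1.27 times for CTGF and 1.20 times for CYR61. Measured by exon length, the 5 genes with 4900 to 7243 exon bases were at 0.61 to 0.94 times that mean, and the 4 genes with 1404 to 2343 exon bases at 1.10 to 1.50 times. Without it the 9 log2 fold changes ran from -0.22 ± 0.09 for WISP2 to 0.11 ± 0.05 for AMOTL2, with -0.09 ± 0.05 for CTGF and 0.03 ± 0.04 for YAP1, and the ranges of all 9 genes still overlapped.

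The lines differed in the level of these genes before any Dox was added. On a scale shared by all 24 libraries, CTGF was at 316 ± 26.6 CPM in Tet-PTF1a Control, 193 ± 14.7 CPM in Tet-One Control and 81.6 ± 2.58 CPM in Tet-MIST1 Control (SD, n = 4 each), and the 3 ranges were apart. With Dox included the order of CTGF was Tet-PTF1a Control, Tet-PTF1a Dox, both Tet-One groups and both Tet-MIST1 groups, and only the Control and Dox groups within Tet-One and within Tet-MIST1 overlapped. The span between the Control groups of Tet-PTF1a and Tet-MIST1, 3.87-fold, exceeded the Dox effect on CTGF in any line.

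CYR61 had another order. It was highest in Tet-One Control at 461 ± 25.0 CPM, then 273 ± 9.42 CPM in Tet-MIST1 and 233 ± 12.8 CPM in Tet-PTF1a Control. ANKRD1 was at 6.77 ± 0.70 CPM in Tet-One Control, 4.06 ± 0.63 CPM in Tet-PTF1a Control and 0.25 ± 0.07 CPM in Tet-MIST1 Control, a 26.7-fold span. THBS1 was at 1.98 ± 0.38 CPM in Tet-One Control, with 6.40 ± 1.57 CPM in Tet-MIST1 and 6.04 ± 0.46 CPM in Tet-PTF1a, the last pair overlapping. The 3 genes thus ranked the lines differently, and no line was highest for every target.

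YAP1 was at 412 ± 4.33, 323 ± 10.6 and 204 ± 4.61 CPM in Tet-PTF1a, Tet-One and Tet-MIST1 Control, the order that CTGF also had. WWTR1 was at 687 ± 21.0 CPM in Tet-PTF1a Control and at 484 ± 10.2 and 443 ± 22.9 CPM in Tet-MIST1 and Tet-One Control. AXL was highest in Tet-One Control (236 ± 6.02 CPM), followed by Tet-PTF1a (169 ± 4.67 CPM) and Tet-MIST1 Control (154 ± 4.98 CPM), and Tet-PTF1a Dox lay below all of them at 76.3 ± 3.51 CPM. AMOTL2 differed little, with 84.6 ± 5.11 CPM in Tet-PTF1a Control and overlapping ranges at 65.9 ± 2.24 and 63.7 ± 2.42 CPM in the Control groups of Tet-One and Tet-MIST1. WISP2 fell into 3 separate Control ranges, at 6.14 ± 0.56 CPM in Tet-One, 2.84 ± 0.43 CPM in Tet-MIST1 and 2.01 ± 0.21 CPM in Tet-PTF1a.

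Compared with each other per kilobase of exon, CYR61 led in Tet-One Control at 197 ± 10.1 CPM per kb, with WWTR1 (81.0 ± 3.82) and CTGF (80.8 ± 5.83) next and overlapping. In Tet-PTF1a Control the order at the top was CTGF (139 ± 11.3 CPM per kb), WWTR1 (132 ± 3.53) and CYR61 (105 ± 5.43), the first pair overlapping. THBS1 was last of the 9 in that group at 0.86 ± 0.07 CPM per kb and came to 5.20 ± 0.27 with Dox, above ANKRD1 (2.64 ± 0.10) and WISP2 (0.20 ± 0.05) and still below AMOTL2 (13.0 ± 0.09). Even at its highest, THBS1 was thus a minor transcript beside CTGF and CYR61, which were at 116 ± 2.54 and 115 ± 4.34 CPM per kb in the same libraries.

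**Figure D4:**
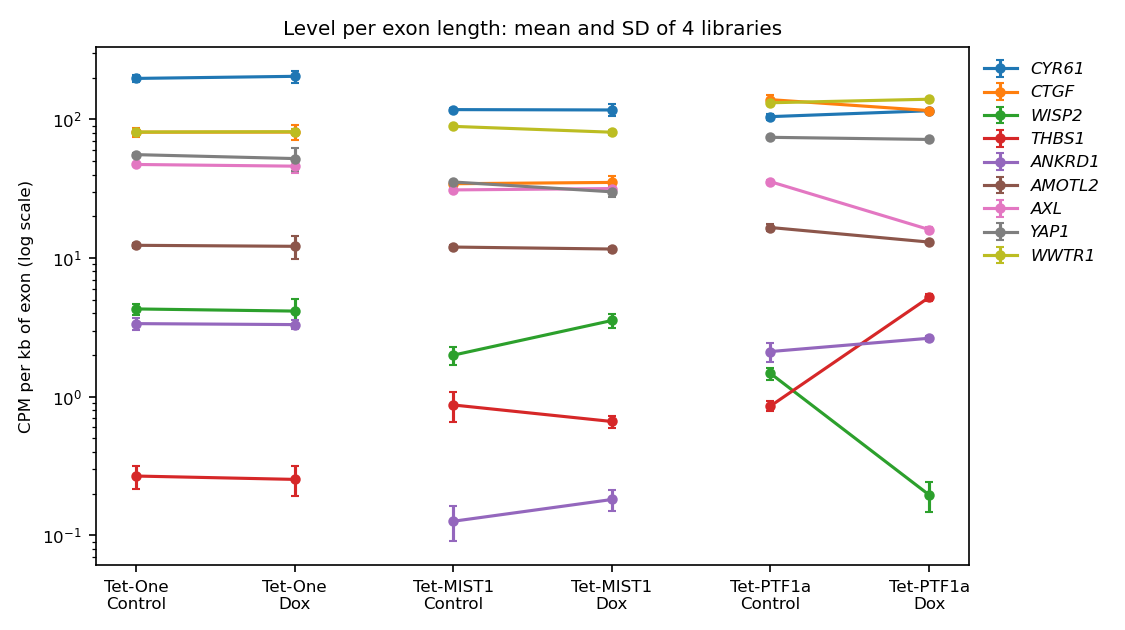
CPM per kilobase of exon (y axis, log scale) of the 9 genes in the 6 groups (x axis), as mean and SD of 4 libraries, with a line joining Control and Dox of the same line. THBS1 moves from 0.86 to 5.20 and WISP2 from 1.47 to 0.20 in Tet-PTF1a, while ANKRD1 is lowest of the 9 genes in both Tet-MIST1 groups.

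Genes whose log2 CPM followed a member most closely were sought among 12954 genes over the 24 libraries, as a description in which differences between the clones weigh heavily. The ranking was repeated over the 23 libraries without Tet-One Dox replicate 1, and the first place was kept for YAP1, CTGF and CYR61 only. YAP1 was followed by TAOK1, a kinase upstream of the Hippo cascade (Pearson's r = 0.997), and XPO4 (0.997), in both rankings. CTGF was followed by PAFAH1B2 (0.992) and HTRA1 (0.988), a secreted serine protease, whose place VGLL3 took without that library. CYR61 was followed by NAT9 (0.985) and ABCD4 (0.979), with TRNP1 second without it. AXL was followed by UACA (0.986) and MMP2 (0.978), a gelatinase of the extracellular matrix, and without that library by DUSP1 and UACA. THBS1 was followed by TMEM51-AS1 (0.981), an antisense transcript whose reads may not be separable from those of its partner, and ZBTB18 (0.980), and without it by SPINT1 and TMEM51-AS1. For the other 4 members both places changed. They were held by CTSB (0.975) and TAGLN2 (0.970) for WISP2, then MAPK11 and MT1E. For ANKRD1 they were held by ZNF22 (0.988) and LRRC61 (0.987), then SMARCE1 and ACO1. WWTR1 had TMEM170B (0.987) and REEP3 (0.987), then FZD6 and DENND1B, and AMOTL2 had IQCE (0.921) and IRS1 (0.905), then C10orf91 and PKDCC.

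The rest of the pathway was read from lists of 81 other genes, of which 74 were tested in each line with edgeR (quasi-likelihood, Benjamini-Hochberg adjustment over all genes). In Tet-PTF1a 20 were induced and 25 repressed, 60.8% of those tested, beside 48.2% of all genes. In Tet-MIST1 5 were induced and 13 repressed, 24.3% beside 20.6% of all genes, and in Tet-One 0 were called. Lists were written with earlier results of these libraries known. The responses of the 37 list genes named below in Tet-MIST1 were also set against those in Tet-One. In edgeR's interaction test 0 of the 37 passed (lowest FDR 0.19), where 1.67% of all genes did, and 8 passed without Tet-One Dox replicate 1, where 14.1% of all genes did.

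The other thrombospondins went the way of THBS1 in Tet-PTF1a cells, where both that were tested were induced. THBS3 rose from 37.7 to 88.5 CPM (log2 fold change 1.24 ± 0.04, FDR 3.6e-33), and COMP, the cartilage thrombospondin, from 0.889 to 3.01 CPM (1.65 ± 0.17, FDR 4.4e-12). In both, every Dox library was above every Control library. The response of THBS3 in Tet-PTF1a exceeded that in Tet-One by 1.31 ± 0.13 on the log2 scale (FDR 6.0e-06) and that in Tet-MIST1 by 0.99 ± 0.09 (FDR 8.7e-09), comparisons that share the Tet-PTF1a libraries, and such a difference was called for 12.9% and 36.4% of all genes. In Tet-MIST1 THBS3 changed by 0.25 ± 0.07 (FDR 0.032) with overlapping ranges, a call that was lost when Control replicate 1, among others, was left out, and COMP by -0.25 ± 0.19 (FDR 0.32).

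Of the other CCN genes, WISP1 fell in Tet-MIST1 by 0.63 on the log2 scale (SE 0.20, FDR 0.035), from 1.01 to 0.635 CPM. In Tet-One its log2 fold change was -0.31 ± 0.18 (FDR 0.90), from 0.785 to 0.620 CPM. The responses in Tet-MIST1 and Tet-One differed by -0.32 ± 0.27 (FDR 0.78), or by -0.41 ± 0.29 (FDR 0.32) without Tet-One Dox replicate 1. WISP3 gave log2 fold changes of 0.22 ± 0.18 in Tet-MIST1 (FDR 0.38) and -0.41 ± 0.21 in Tet-PTF1a (FDR 0.074), from 1.25 to 0.908 CPM, which became a call without Control replicate 1 (-0.53, FDR 0.031).

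Among the DNA-binding partners, TEAD1 and TEAD3 rose slightly in Tet-PTF1a, both by 0.19 on the log2 scale (FDR 5.1e-08 and 0.0041), calls that were lost with all 24 libraries in one fit (FDR 0.40 and 0.17). Their responses exceeded those in Tet-One by 0.33 ± 0.22 (FDR 0.40) and 0.27 ± 0.14 (FDR 0.26), which did not pass the test, and without Tet-One Dox replicate 1 by 0.14 ± 0.05 (FDR 0.031) and 0.16 ± 0.09 (FDR 0.17), where TEAD1 passed. VGLL3, a cofactor that competes for TEAD, fell by 0.91 on the log2 scale from 14.2 to 7.52 CPM (FDR 3.7e-16), and VGLL4, a repressor of TEAD, fell by 0.14 (FDR 0.00017). The VGLL4 response differed from that in Tet-One by -0.09 ± 0.07 (FDR 0.49), or by -0.12 ± 0.05 (FDR 0.087) without Tet-One Dox replicate 1. TEAD2 and TEAD4 were at log2 fold changes of 0.03 ± 0.04 (FDR 0.61) and 0.01 ± 0.04 (FDR 0.90). The list thus had 2 induced and 2 repressed of 6 tested genes. In Tet-MIST1 0 of 5 passed the test, and TEAD1 came nearest at -0.25 ± 0.08 (FDR 0.057), a value that passed without Control replicate 4 (FDR 0.048), Dox replicate 1 (FDR 0.022) or Dox replicate 2 (FDR 0.034), while TEAD3, at -0.16 ± 0.07 (FDR 0.12), passed without Dox replicate 2 (FDR 0.027).

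All 24 listed Hippo kinases and upstream regulators were tested. In Tet-PTF1a 7 were induced and 1 was repressed, with a median log2 fold change of 0.06, and scaling by library size raised the induced to 13. PTPN14, a phosphatase that binds YAP1 and is also a YAP target, rose by 0.60 on the log2 scale from 580 to 882 CPM (FDR 1.2e-07), FRMD6 by 0.47 (FDR 9.5e-18) and the atypical cadherin DCHS1 by 0.28 (FDR 0.0052, and 0.36 with all 24 libraries in one fit). NF2, which encodes the tumour suppressor merlin, fell by 0.47 (FDR 1.5e-10). In Tet-MIST1 1 was induced (AMOTL1, 0.33 ± 0.11, FDR 0.047) and 5 were repressed, with a median of -0.16. DCHS1 fell by 0.48 (FDR 0.023), TAOK1 by 0.34 (FDR 0.031) and PTPN14 by 0.32 (FDR 0.031) on the log2 scale, and with the trend of exon length removed the median of the list was -0.08. In Tet-One the median of the list was -0.09. PTPN14 and DCHS1, with 13443 and 10759 exon bases, thus responded in opposite directions in the 2 lines, with log2 differences of 0.94 ± 0.11 (FDR 1.1e-06) and 0.77 ± 0.17 (FDR 0.00098) between them. Their responses in Tet-MIST1 differed from those in Tet-One by -0.21 ± 0.25 (FDR 0.89) and -0.28 ± 0.31 (FDR 0.88), which did not pass the interaction test. Without Tet-One Dox replicate 1 they differed by -0.41 ± 0.12 (FDR 0.031) and -0.52 ± 0.18 (FDR 0.054), where PTPN14 passed.

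The 17 further YAP target genes were split. In Tet-PTF1a 6 were induced and 8 repressed, with a median log2 fold change of -0.26. TGFB2, which encodes a TGF-β ligand, rose by 0.81 on the log2 scale from 36.1 to 64.5 CPM (FDR 3.1e-07), and the kinase NUAK2 by 0.68 (FDR 3.0e-09). NT5E, the ectonucleotidase CD73, fell by 0.79 from 298 to 172 CPM (FDR 1.5e-32), the forkhead factor FOXF2 by 0.74 (FDR 1.6e-17) and CCDC80 by 0.63 (FDR 3.7e-05). The CCDC80 response differed from that in Tet-One by -0.49 ± 0.18 (FDR 0.081), or by -0.60 ± 0.16 (FDR 0.0041) without Tet-One Dox replicate 1. In Tet-MIST1 1 was induced (GADD45B, 0.26 ± 0.08, FDR 0.040) and 4 were repressed, among them F3, the tissue factor gene (by 0.64, FDR 0.0042), and DOCK5 (by 0.59, FDR 0.012). The median there was -0.17, and 14 of the 17 values were below 0. With the trend of exon length removed the median was -0.12, and 13 of 17 were below 0. Tet-One values also leaned down with Dox, with a median of -0.11 and 13 of 16 below 0. In Tet-One F3 was at 0.465 and 0.281 CPM in Control and Dox, and its responses in Tet-MIST1 and Tet-One differed by -0.01 ± 0.46 (FDR 0.99), or by 0.46 ± 0.41 (FDR 0.32) without Tet-One Dox replicate 1.

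The actin cytoskeleton genes regulated by SRF were mostly lower in Tet-PTF1a, with 2 induced and 8 repressed of 14 tested and a median log2 fold change of -0.19. CNN1, calponin of smooth muscle, fell by 1.02 on the log2 scale from 1.82 to 0.915 CPM (FDR 9.1e-06), FLNA, filamin A, by 0.57 (FDR 1.9e-29) and TPM4 by 0.37 (FDR 9.6e-20). VCL, the focal adhesion protein vinculin, went the other way and rose by 0.50 from 776 to 1098 CPM (FDR 3.6e-27). The responses of FLNA and VCL differed from those in Tet-One by -0.52 ± 0.28 (FDR 0.28) and 0.72 ± 0.24 (FDR 0.069), which did not pass the interaction test. Both passed without Tet-One Dox replicate 1, at -0.75 ± 0.05 (FDR 3.0e-13) and 0.51 ± 0.04 (FDR 1.4e-11). SRF rose by 0.08 (FDR 0.030), and this call was lost in DESeq2 (FDR 0.078), with all 24 libraries in one fit (FDR 0.24) and without Control replicate 2 (FDR 0.084), Dox replicate 2 (FDR 0.098) or Dox replicate 4 (FDR 0.18). In Tet-MIST1 0 were induced and 2 were repressed, VCL by 0.36 (FDR 0.023) and TPM4 by 0.17 (FDR 0.023).

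Of the receptors and ligands, 3 were induced and 6 repressed of 12 tested in Tet-PTF1a. Only those with the largest changes are named here, up to 3 induced and 3 repressed. Among the genes so named, the integrin subunits ITGB3 and ITGAV were repressed and ITGA6 was induced. The changes were a fall for ITGB3 by 0.89 on the log2 scale from 12.5 to 6.54 CPM (FDR 3.7e-14), for ITGAV by 0.45 from 622 to 455 CPM (FDR 8.7e-08) and for the thrombospondin receptor CD47 by 0.28 (FDR 9.5e-09). MERTK, a receptor of the AXL family, rose by 0.40 from 32.3 to 43.2 CPM (FDR 1.8e-10), while PROS1, a ligand of that family, and ITGA6, a subunit of receptors for laminin and CCN proteins, rose by 0.11 (FDR 0.0016) and 0.10 (FDR 0.00015), calls lost with all 24 libraries in one fit (FDR 0.14 and 0.34). In Tet-MIST1 2 were induced and 2 repressed. TYRO3, another receptor of the AXL family, rose by 0.36 (FDR 0.0016) and the AXL ligand GAS6 by 0.24 (FDR 0.011), while MERTK fell by 0.33 (FDR 0.0052) and ITGB3 by 0.42 (FDR 0.025). GAS6 was also higher with Dox in Tet-One, at 8.78 ± 0.43 and 10.3 ± 0.56 CPM (SD, n = 4 each), and its responses in Tet-MIST1 and Tet-One differed by 0.00 ± 0.08 (FDR 1.00). MERTK moved in opposite directions in the 2 lines, while ITGB3 fell in both. In Tet-One MERTK was at 41.0 and 36.5 CPM and ITGB3 at 13.2 and 11.4 CPM in Control and Dox. The responses of ITGB3 and ITGAV in Tet-PTF1a differed from those in Tet-One by -0.72 ± 0.32 (FDR 0.17) and -0.32 ± 0.15 (FDR 0.19). Without Tet-One Dox replicate 1 they differed by -0.93 ± 0.12 (FDR 3.7e-07) and -0.44 ± 0.06 (FDR 7.4e-06).

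The Tet-MIST1 calls were less firm than the Tet-PTF1a calls. Of the 15 list genes named as DEGs in Tet-MIST1, 10 lost the call without Control replicate 1 (FDR 0.061 to 0.11) and the same number without Control replicate 3 (FDR 0.059 to 0.11), 7 without Control replicate 2, 4 without Control replicate 4, 2 without Dox replicate 2 and 6 each without Dox replicates 3 and 4. The 10 were WISP1, THBS3, AMOTL1, DCHS1, TAOK1, PTPN14, GADD45B, VCL, TPM4 and ITGB3. The calls of F3, DOCK5, TYRO3, GAS6 and MERTK held with each library left out in turn, but with all 24 libraries in one fit those of F3 (FDR 0.055) and DOCK5 (FDR 0.10) were lost.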

How the data were processed

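Polyadenylated RNA of the 3 Panc-1 lines was sequenced as paired-end reads, 24 libraries of 6 groups that were taken from the sample labels. The authors aligned the reads to hg19 with TopHat and deposited, for each line apart, the count of reads per gene after a filter of 0.5 CPM in at least 4 libraries. The authors also deposited a CPM signal computed with a scaled library size, the exon length of each gene, and their own comparison (log2 fold change, p-value and FDR), which was not used. HTSeq and DESeq are named in the submitters' processing notes without a role. The counting annotation and use of strand were not given in the sources used here, so reads of overlapping genes may be shared. The study calls the 4 libraries of a group biological replicates, all from 1 line, and the tests measure the spread between them. A chi-square test of counts over genes separated all 36 pairs of replicates beyond sampling noise (1.39 to 238 per degree of freedom).

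The members and the gene lists were chosen with earlier results of these data known. Dox was compared with Control within a line on the deposited counts in edgeR 4.0.16 (R 4.3.3), with its quasi-likelihood test, TMM factors and the Benjamini-Hochberg adjustment, for genes above 0.5 CPM in at least 4 of 8 libraries. DEGs had an FDR under 0.05, and log2 fold changes use a prior count of 2. A difference of response was tested as an interaction over the 16 libraries of a pair of lines. Means and SDs are over the deposited CPM, and levels across lines over a joint TMM scale. The biological coefficient of variation was 14.4% in Tet-One (4.79% without Dox replicate 1), 6.58% in Tet-MIST1 and 2.80% in Tet-PTF1a. Named are the 9 genes, the listed CCN, thrombospondin, TEAD and VGLL genes, up to 3 induced and 3 repressed DEGs above 1 CPM of each other list, and the 2 genes closest to each member. Alternatives were DESeq2 1.42.0, library size scaling, other filters, a prior count of 0.125, a limit of 1 on the log2 fold change, one fit of all 24 libraries, a block for the replicate number and each library left out. Removal of the exon length trend, as a lowess curve given to edgeR through offsets, was added after seeing the data. The scripts were tested on simulated data. Promoters came from a RefSeq table (GRCh38.p14), matched by symbol for 7 of the 9 genes, and figures were drawn with matplotlib in Python.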

Additional observations from a re-analysis of the deposited data

Results flagged for a closer look

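Of 54 groups of 4 libraries checked for the 9 genes, 6 held 1 library whose distance to its nearest neighbour took an unusual share of the range, and chance gives such a library in about 1 group of 20. In Tet-One Dox it was replicate 1, highest for CTGF (0.835 of the range) and WISP2 (0.833) and lowest for YAP1 (0.881). In Tet-PTF1a Control it was replicate 1, highest for CYR61 (0.921) and CTGF (0.915), and in Tet-MIST1 Control replicate 1, highest for THBS1 (0.855). The fold changes without these libraries are given above.

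For 3 of the 9 genes all Dox libraries lay on one side of Control in Tet-MIST1 and on the other side in Tet-PTF1a. No test of the difference is given, since the genes were chosen on these values. The share of all genes with such opposite ranges was not computed, so whether 3 of 9 is unusual was not tested. The Dox to Control ratio of mean CPM was 1.78 and 0.133 for WISP2, 0.760 and 6.07 for THBS1, and 0.907 and 1.06 for WWTR1, in Tet-MIST1 and Tet-PTF1a in turn.

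Among 37 list genes named, 40 differences between the Dox responses of a pair of lines passed the interaction test at an FDR under 0.05. Many of these genes were named for their large fold changes in the same libraries, which favours passing, so the count is a description. Of all genes, 12.9% passed against Tet-One and 36.4% against Tet-MIST1. The differences are given on the log2 scale as the response in Tet-PTF1a minus that in the other line, and both sets share the Tet-PTF1a libraries. Against Tet-One, the response was lower for VGLL3 (-1.00), FOXF2 (-0.94), CNN1 (-0.86), NT5E (-0.71), NF2 (-0.51), CD47 (-0.41), TPM4 (-0.32) and higher for FRMD6 (0.55), MERTK (0.58), NUAK2 (0.72), PTPN14 (0.72), TGFB2 (0.95), COMP (1.21), THBS3 (1.31). Against Tet-MIST1, it was lower for CNN1 (-0.86), FOXF2 (-0.67), WISP3 (-0.62), GADD45B (-0.61), NT5E (-0.56), ITGB3 (-0.46), TYRO3 (-0.38), ITGAV (-0.34), FLNA (-0.29), CD47 (-0.24), VGLL4 (-0.21), TPM4 (-0.19) and higher for ITGA6 (0.13), SRF (0.18), TAOK1 (0.32), TEAD3 (0.37), TEAD1 (0.45), NUAK2 (0.56), FRMD6 (0.58), MERTK (0.75), DCHS1 (0.77), TGFB2 (0.87), VCL (0.88), PTPN14 (0.94), THBS3 (0.99), COMP (1.93).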

How the results depend on the processing

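The Tet-One comparison gave 0 DEGs, and 1 without Tet-One Dox replicate 1. The 2812 Tet-MIST1 DEGs became 1703 with all 24 libraries in one fit and 55 with a limit of 1 on the size of log2 fold changes, and ran from 1436 to 3764 with each library left out (1462 without Control replicate 1, 1774 without 2 and 1436 without 3). The 6775 Tet-PTF1a DEGs became 3128 with all 24 libraries in one fit and 501 with that limit, and ran from 6181 to 6479. Genes with a different Dox response in Tet-MIST1 and Tet-One numbered 232, against 499 by DESeq2 and 48 with the limit, and ran from 144 to 1960 with each library left out (1960 without Tet-One Dox replicate 1, 144, 146 and 146 without Tet-MIST1 Control replicates 1, 3 and 4). For Tet-PTF1a and Tet-One they numbered 1738, 409 with the limit, and ran from 1393 to 4146 (4146 without Tet-One Dox replicate 1). For Tet-PTF1a and Tet-MIST1 they numbered 4916, 470 with the limit, and ran from 4376 to 5511. The cause of these changes was not tested. Of the list genes named as DEGs, all 24 libraries in one fit lost the call of 10 of 15 in Tet-MIST1 and 6 of 26 in Tet-PTF1a.

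With the replicate number as a block, DEGs numbered 1463 in Tet-MIST1 and 6706 in Tet-PTF1a, and 83 genes differed between Tet-MIST1 and Tet-One. Of the list genes named as DEGs, 8 of 15 in Tet-MIST1, GAS6 among them, and 0 of 26 in Tet-PTF1a lost the call under the block. Correlations between Control and Dox libraries of the same number ran from -0.35 to 0.29, so the numbers were not taken to pair samples. Of single values for named genes, 1056 were counted as unchanged, 88 lost and 11 gained the threshold, and 0 called values reversed direction. A value that was not called was counted as unchanged even where its sign changed. An example is YAP1 in Tet-One, at -0.09 and at 0.03 without Dox replicate 1.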
